A study of Mus musculus with 20 samples.

Results

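The 10 genes described here, Gfap, Aqp4, Slc1a2, Slc1a3, Aldoc, S100b, Aldh1l1, Glul, Slc4a4 and Kcnj10, carry out the work of mature astrocytes, and they were chosen by name. Each was represented by the probe sets to which the platform annotation gives that symbol alone, with the brightest over the 20 arrays standing for the gene. All 10 were on the array, out of 18704 genes with such a probe set, and all 10 lay above the limit for dim probe sets and were among the 14129 genes tested. Glul had 2 probe sets and every other gene had 1.

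Expression was measured in hypothalamus of male C57BL/6J mice made obese by diet, on 20 Affymetrix Mouse Gene 1.0 ST arrays in 6 groups. All groups shared the strain and the diet, which held 45% fat, began at 4 weeks of age and lasted 16 weeks. The vehicle groups received dimethyl sulfoxide (DMSO) into the peritoneum and were taken at 6 h (3 arrays), 1 day (3 arrays) or 4 days (3 arrays), with a volume of 25 µl per day in the labels. The treated groups received celastrol, a plant triterpenoid that lowers food intake in obese mice, and were taken at 6 h (4 arrays), 1 day (4 arrays) or 4 days (3 arrays). A dose of 250 µg/kg is written beside the 6 h time alone, so the daily dose at the other times is not stated in the labels. The design asks how the obese hypothalamus responds to celastrol over these times. There was no lean or untreated group. The labels describe replicates as biological but do not tie an array to an animal, so the tests measure the spread between arrays.

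Astrocytes clear the glutamate and potassium that neurons release, move water and bicarbonate across the membranes that face blood vessels, and supply neurons with glutamine and lactate. In the hypothalamus they also respond to obesity, where a rise in Gfap filaments is a usual sign of a reactive state. The tissue is whole, so a lower value for an astrocyte gene can come from fewer astrocytes or from less RNA per astrocyte, and these cannot be told apart here.

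None of the 10 genes passed the test against vehicle at any time. Every value is a log2 intensity, every difference is the celastrol mean less the vehicle mean on that scale, given ± its standard error, and a call is an adjusted p below 0.05 in limma after Benjamini-Hochberg adjustment over the 14129 genes. At 6 h limma called 0 of the 10 genes, against 0 percent of all genes tested (1067 genes had an unadjusted p below 0.05, among them 1 of the 10). At 1 day it called 0 of the 10 against 0.425% of all genes, and 2 of the 10 (1157 of all genes) had an unadjusted p below 0.05. At 4 days it called 0 of the 10 against 0.0637% of all genes, and 1 (922 of all genes) had an unadjusted p below 0.05. For the average of the 3 times it called 0 of the 10 against 0.573% of all genes, and 3 (1240 of all genes) had an unadjusted p below 0.05.

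The differences were small and leaned downward at the first 2 times. Values were lower on average in celastrol arrays for 8 of the 10 genes at 6 h, 8 of 10 at 1 day, 5 of 10 at 4 days and 7 of 10 over the 3 times. Of all tested genes, 58.3% were lower at 6 h, 46.2% at 1 day, 45.6% at 4 days and 50.1% over the 3 times. With arrays quantile normalized again, Slc1a3 (0.012) and Aldoc (0.013) were higher at 1 day. The median of the 10 differences was -0.027 at 6 h, -0.038 at 1 day and -0.0080 at 4 days, beside medians over all tested genes of -0.015, 0.0063 and 0.0075. The 10 differences ran from -0.16 to 0.020 at 6 h, from -0.20 to 0.096 at 1 day and from -0.16 to 0.15 at 4 days. The smallest adjusted p was 0.133, for Aqp4 at 1 day.

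A second count asked in how many genes every array of a group lay on 1 side of every array of the other. At 6 h 2 of the 10 genes were separated in this way, Aldh1l1 and Kcnj10, both lower with celastrol, while 6.35% of all tested genes were separated in either direction; without vehicle replicate 1 of that time the count was 4 of 10, beside 17.7% of all genes. At 1 day 5 of the 10 were separated, Aqp4, Slc1a2, S100b, Slc4a4 and Kcnj10, all lower with celastrol, beside 7.81% of all tested genes. The 1 day count was 2 of 10, Aqp4 and S100b, once the arrays were quantile normalized again (8.65% of all genes), and 4 of 10 with arrays centred on their medians (8.73%). At 4 days 1 of the 10 was separated, S100b, again lower with celastrol, beside 14.4% of all tested genes, and this count was 5 without vehicle replicate 3 of that time (28.2% of all genes) and 3 without celastrol replicate 1 (25.7%). The separated arrays are a description, since none of these differences passed the adjusted threshold.

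**Figure D1:**
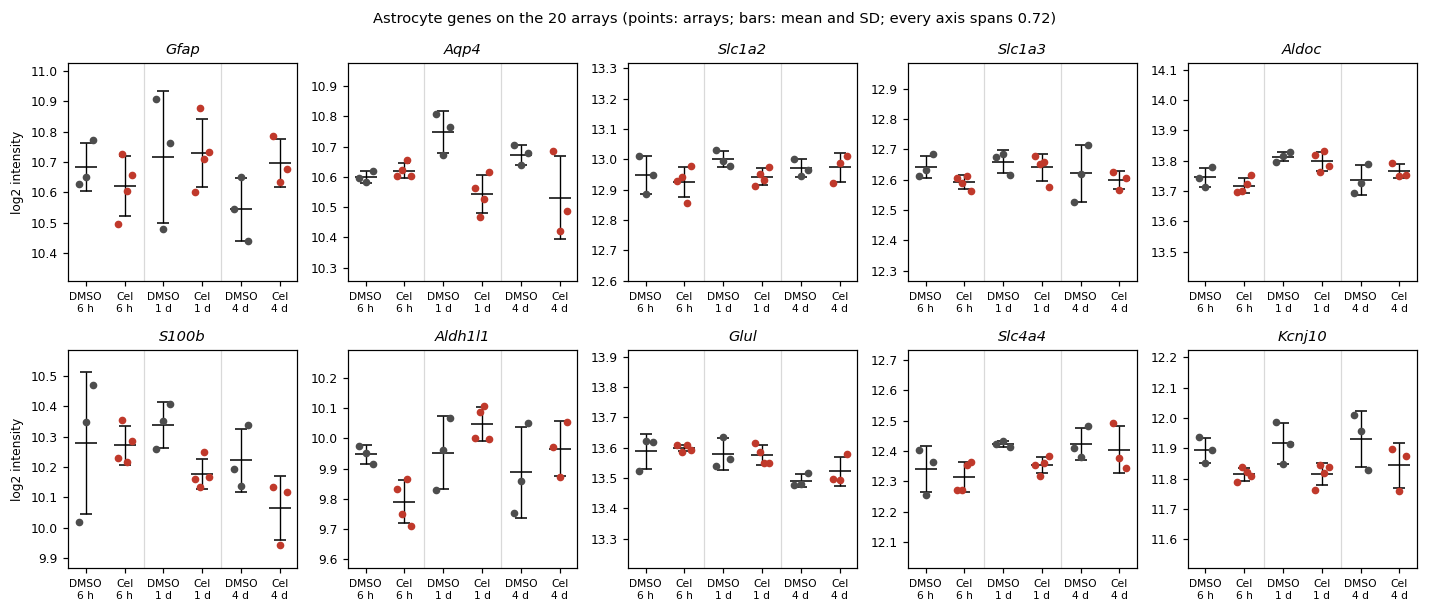
Log2 intensity of each of the 10 astrocyte genes on the 20 arrays, with vehicle arrays in grey and celastrol arrays in red at 6 h, 1 day and 4 days; bars give the group mean and SD, and every vertical axis spans the same width around that gene's mean. The 4 celastrol arrays of 1 day lie below the 3 vehicle arrays for Aqp4, S100b, Slc1a2, Slc4a4 and Kcnj10, and Gfap and S100b spread the most within groups.

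Of the vehicle arrays, 2 stood apart from the rest on the first component of the deviations from group means, which held 25.0% of their variance: replicate 3 at 6 h scored 11.4 and replicate 3 at 1 day 9.61, against -6.13 to 5.32 for the other 18. Array medians lay between 8.596 and 8.653 and correlations between arrays of a group between 0.995 and 0.998. Of 19 hypothalamic marker genes 18 were on the array and all 18 were above the dim limit, with a median difference between -0.0036 and 0.018 over the 3 times. Without both vehicle arrays that stood apart, limma still called 0 of the 10 astrocyte genes in each comparison with vehicle.

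**Figure D2:**
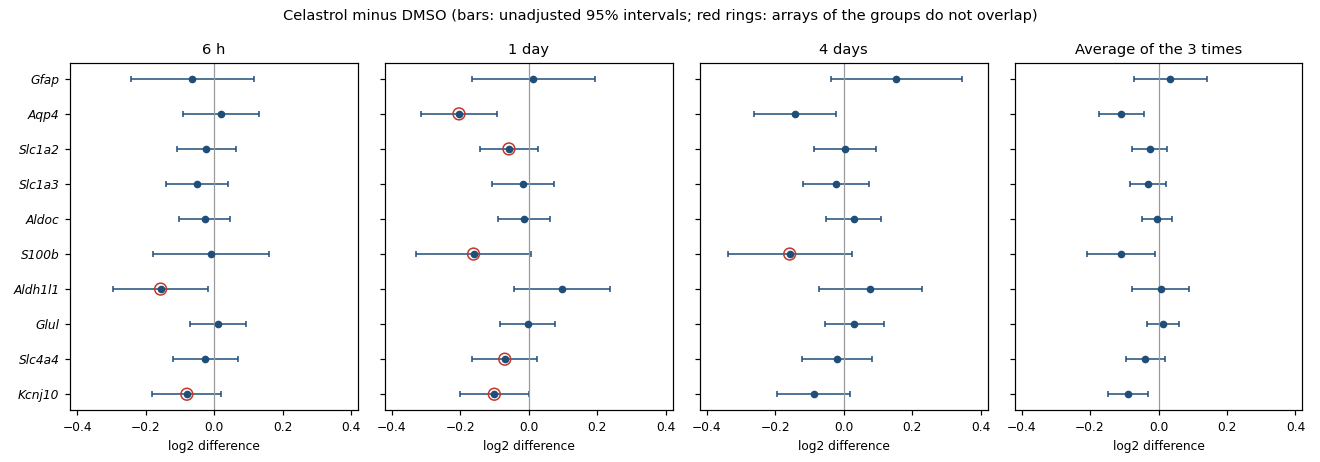
Difference between celastrol and vehicle arrays for each gene at 6 h, 1 day, 4 days and on average, on the log2 scale, with unadjusted 95% intervals from limma; rings mark genes whose arrays did not overlap between the groups. Aqp4 at 1 day (-0.20) has the interval farthest from 0, and the intervals of Gfap, Slc1a2, Slc1a3, Aldoc, Glul and Slc4a4 include 0 in every panel.

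The list of glucocorticoid-induced genes was chosen with earlier results of these data known, so its count of calls is a description. At 1 day 9 of its 18 tested genes were called higher and 0 lower, with a median difference of 0.57. Sgk1, a kinase, rose by 1.16 ± 0.12, Nfkbia by 0.93 ± 0.12 and Ddit4 by 0.68 ± 0.11. The largest adjusted p of the 3 in limma was 0.0050. The start regions of the astrocyte genes were searched for the letters of the glucocorticoid response element. Sites for 2 factor families that act on astrocyte genes, STAT and NFI, were searched as well. RefSeq start regions on GRCm38.p6 were given for 9 of the 10 genes, in 11 windows, and Aqp4 was not searched. The 250 bases before each start were read on both strands. The glucocorticoid response element (AGAACA and TGTTCT with 3 letters of any kind between, up to 2 mismatches) was in 0 of the 11 windows and in 1.56% of all 32851 windows of that length. With a share that low, most sets of 11 windows would hold no match, so the 0 says nothing about these genes. The STAT motif (TTC, 3 letters of any kind, GAA) was in windows of Aldoc and Slc1a3 and in 7.02% of all windows. The NFI motif (TTGGCA) was in windows of Aldoc and S100b and in 12.3% of all windows. No match overlapped a match of another motif. One stretch is shown for each of the 3 genes that held a motif, with the matched letters in capitals, to set beside the values of these genes. The Slc1a3 stretch lies at chr15:8710870-8710928 on the minus strand, the S100b stretch at chr10:76253792-76253835 on the plus strand and the Aldoc stretch at chr11:78322902-78322957 on the plus strand.
Slc1a3, STAT motif: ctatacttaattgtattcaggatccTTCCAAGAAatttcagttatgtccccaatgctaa
S100b, NFI motif: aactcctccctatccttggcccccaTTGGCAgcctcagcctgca
Aldoc, NFI motif: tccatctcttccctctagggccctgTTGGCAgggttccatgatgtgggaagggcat
A match is a run of letters and not a measured site, and no binding was measured here.

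Aqp4 encodes aquaporin-4, the water channel of astrocyte endfeet around vessels, and had the smallest p of the 10 genes. At 1 day its vehicle arrays read 10.81, 10.67 and 10.76 and its celastrol arrays 10.56, 10.47, 10.53 and 10.62. Every celastrol array lay below every vehicle array at that time. The difference was -0.20 ± 0.053 (limma, adjusted p = 0.133), a change of -13.2% with an unadjusted 95% interval from -19.6% to -6.22%. At 4 days vehicle arrays read 10.70, 10.64 and 10.68 and celastrol arrays 10.68, 10.42 and 10.49, so that celastrol replicate 1 fell within the vehicle range and the other two were lower. The 4 day difference was -0.14 ± 0.057 (adjusted p = 0.674). At 6 h vehicle arrays read 10.60, 10.58 and 10.62 and celastrol arrays 10.60, 10.62, 10.65 and 10.60, which overlapped, with a difference of 0.020 ± 0.053. The vehicle mean itself was 10.60 ± 0.019 (SD, n = 3) at 6 h and 10.75 ± 0.069 (SD, n = 3) at 1 day, while the celastrol mean was 10.62 ± 0.024 (SD, n = 4) and 10.54 ± 0.062 (SD, n = 4). The vehicle arrays were therefore higher at 1 day than at 6 h by 0.15 ± 0.057 and the celastrol arrays lower by a smaller amount, -0.076 ± 0.049. The average over the 3 times was -0.11 ± 0.031 (adjusted p = 0.170). Without celastrol replicate 1 of 4 days, which changes the shared estimate of spread, the 1 day difference passed (adjusted p = 0.0361), as did the average (-0.13, adjusted p = 0.0136); over all alternatives the 1 day adjusted p ran from 0.0361 to 0.589.

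Kcnj10 encodes Kir4.1, the inward rectifier channel through which astrocytes take up potassium, and its differences were alike in size at the 3 times. At 6 h vehicle arrays read 11.94, 11.85 and 11.89 and celastrol arrays 11.79, 11.84, 11.82 and 11.81. At 1 day vehicle arrays read 11.99, 11.85 and 11.91 and celastrol arrays 11.76, 11.84, 11.82 and 11.84. The celastrol arrays were all lower than the vehicle arrays at both of these times, and the nearest arrays of the groups were close together. At 4 days vehicle arrays read 12.01, 11.96 and 11.83 and celastrol arrays 11.90, 11.76 and 11.88, which overlapped. The difference was -0.079 ± 0.048 at 6 h, -0.10 ± 0.048 at 1 day and -0.088 ± 0.051 at 4 days, and the average was -0.089 ± 0.028 (limma, adjusted p = 0.236). That average corresponds to -6.01%, with an unadjusted 95% interval from -9.80% to -2.07%.

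Slc4a4 encodes the sodium bicarbonate cotransporter NBCe1, which carries bicarbonate across astrocyte membranes. At 1 day its vehicle arrays read 12.42, 12.43 and 12.41 and its celastrol arrays 12.36, 12.32, 12.36 and 12.38. The groups did not overlap at that time, with a difference of -0.070 ± 0.045 (adjusted p = 0.719). Vehicle arrays ran from 12.26 to 12.40 at 6 h and from 12.38 to 12.48 at 4 days, and celastrol arrays from 12.27 to 12.36 and from 12.35 to 12.49, overlapping at both times with differences of -0.026 and -0.019.

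A list of 23 tested genes for potassium, water and acid-base handling in glia, none of them among the 10, had 0 genes called in either direction at each time and a median difference of -0.016 at 1 day. The genes of that list with the smallest p over the times included Kcnj2, another inward rectifier, with a 1 day difference of 0.24 ± 0.069 (limma, adjusted p = 0.197). Car2, the carbonic anhydrase that supplies bicarbonate and is also abundant in oligodendrocytes, had a 1 day difference of -0.26 ± 0.10 (adjusted p = 0.462).

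The pair of glutamate transporters lay close to vehicle. Slc1a2 encodes GLT-1, the main glutamate transporter of the forebrain, and its 20 arrays spanned 0.17 in all. At 1 day its vehicle arrays read 13.03, 12.99 and 12.98 and its celastrol arrays 12.91, 12.95, 12.93 and 12.97. The nearest arrays of the groups were 12.98 and 12.97, so the groups were barely separated, with a difference of -0.058 ± 0.041 (adjusted p = 0.746). The difference was -0.022 at 6 h and 0.0030 at 4 days, with overlapping arrays at both times, and over the 3 times the unadjusted 95% interval ran from -5.14% to 1.71%. Slc1a3, which encodes GLAST and is also carried by radial glia and tanycytes, had differences of -0.050 ± 0.043 at 6 h, -0.018 ± 0.043 at 1 day and -0.023 ± 0.046 at 4 days, with overlapping groups at each time. Its vehicle arrays ran from 12.61 to 12.68 at 6 h, 12.62 to 12.69 at 1 day and 12.53 to 12.72 at 4 days, and its celastrol arrays from 12.56 to 12.61, 12.58 to 12.68 and 12.57 to 12.62. The average for Slc1a3 had an interval from -5.64% to 1.63%.

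Glul encodes glutamine synthetase, the astrocyte enzyme that turns glutamate into glutamine, and its identity on the array is uncertain. Its brighter probe set is numbered among 10 neighbours that all belong to chromosome 11, between C1d and Spred2. By number the other probe set lies between Teddm1a and Stx6, and its 10 neighbours all belong to chromosome 1, where RefSeq places Glul. Whether the brighter probe set reads a near-identical copy was not tested, so both are given. By the brighter probe set the difference was 0.012 ± 0.039 at 6 h, -0.0037 ± 0.039 at 1 day and 0.031 ± 0.042 at 4 days. By the other it was -0.00041 ± 0.052, 0.030 ± 0.052 and -0.0015 ± 0.056. Neither probe set passed at any time, the smallest adjusted p being 0.929 among the values of the other one. On the brighter probe set, vehicle arrays ran from 13.52 to 13.62 at 6 h, 13.54 to 13.64 at 1 day and 13.48 to 13.52 at 4 days, and celastrol arrays from 13.59 to 13.61, 13.55 to 13.62 and 13.49 to 13.58.

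The 19 tested genes of glutamate and glutamine handling outside the 10 had 0 called in either direction at each time, with a median difference of 0.016 at 1 day. The largest values near the threshold were Gpt2, the mitochondrial alanine aminotransferase, at 0.29 ± 0.070 (limma, adjusted p = 0.0918), and Slc38a2, a glutamine carrier, at 0.21 ± 0.054 (adjusted p = 0.138), both at 1 day.

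Aldoc encodes aldolase C, the brain form of a glycolytic enzyme, and it was the steadiest of the 10 genes. Vehicle arrays read 13.74, 13.71 and 13.78 at 6 h, 13.80, 13.81 and 13.83 at 1 day, and 13.69, 13.73 and 13.79 at 4 days. Celastrol arrays read 13.70, 13.70, 13.72 and 13.75 at 6 h, 13.82, 13.76, 13.83 and 13.78 at 1 day, and 13.79, 13.75 and 13.75 at 4 days. The groups overlapped at every time, and both treatments had their highest mean at 1 day. The average difference was -0.0042 ± 0.021, with an unadjusted 95% interval from -3.29% to 2.81%, the narrowest of the 10. In the list for glycolysis, glycogen and lactate, 1 of 25 tested genes rose and 0 fell at 1 day, beside a list median of -0.012. The one that rose was Slc2a1, the GLUT1 glucose transporter of vessels and astrocytes, at 0.48 ± 0.092 (adjusted p = 0.0205), a call that 5 of the 20 fits with 1 array left out did not make (adjusted p up to 0.124): at 1 day, each vehicle array in turn and celastrol replicates 2 and 3. Averaged over the times, Slc2a1 rose by 0.32 ± 0.054 (limma, adjusted p = 0.0081), a call kept in each of those 20 fits.

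Aldh1l1 encodes a folate enzyme, 10-formyltetrahydrofolate dehydrogenase, used as a broad marker of astrocytes, and its celastrol arrays read lowest at 6 h. At 6 h vehicle arrays read 9.97, 9.95 and 9.91 and celastrol arrays 9.83, 9.75, 9.87 and 9.71, with every celastrol array below every vehicle array. At 1 day vehicle arrays read 9.83, 9.96 and 10.07 and celastrol arrays 10.002, 10.09, 10.11 and 9.999. At 4 days vehicle arrays read 9.75, 9.86 and 10.05 and celastrol arrays 9.97, 9.87 and 10.05. The groups overlapped at the later times, with celastrol means above vehicle means. The difference was -0.16 ± 0.067 at 6 h (adjusted p = 0.647), 0.096 ± 0.067 at 1 day and 0.078 ± 0.071 at 4 days. Within celastrol arrays the level at 1 day was higher than at 6 h by 0.26 ± 0.062. Among the 10 genes it had the smallest p in the test for change between celastrol times (limma F test, adjusted p = 0.0863), which was 0.0485 when arrays were weighted by their quality. At 6 h the thalamic markers also differed by a median of -0.23, with 8 of 10 lower and 0 called. Their mean level ran from 9.48 to 9.93 in the vehicle arrays and from 9.37 to 9.54 in the celastrol arrays of 6 h, and their part in the Aldh1l1 and Kcnj10 values of that time was not tested. Of 17 tested genes of folate and one-carbon metabolism, 0 were called at each time, and the list median was -0.039 at 6 h and 0.053 at 1 day.

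S100b encodes a calcium-binding protein of astrocytes that mature oligodendrocytes also make. At 1 day vehicle arrays read 10.26, 10.35 and 10.41 and celastrol arrays 10.16, 10.13, 10.25 and 10.17. At 4 days vehicle arrays read 10.19, 10.14 and 10.34 and celastrol arrays 10.13, 9.94 and 10.12. Celastrol arrays were all lower at both times, although the nearest arrays of the groups almost touched. At 6 h vehicle arrays read 10.02, 10.35 and 10.47, the widest of any group for this gene, and celastrol arrays 10.23, 10.36, 10.22 and 10.29 lay between them. The difference was -0.0080 ± 0.081 at 6 h, -0.16 ± 0.081 at 1 day (adjusted p = 0.621) and -0.16 ± 0.086 at 4 days (adjusted p = 0.807), with an average of -0.11 ± 0.048 (adjusted p = 0.509). Oligodendrocyte markers were lower at the same times, 11 of 13 at 1 day with a median of -0.17 and 2 called, and 12 of 13 at 4 days with a median of -0.25 and 2 called. The called genes were the connexins Gjc3 and Gjb1 at both times, at -0.30 ± 0.055 (limma, adjusted p = 0.0192) and -0.25 ± 0.053 (adjusted p = 0.0385) at 1 day. Of the 20 fits without 1 array, 15 kept the 1 day call of Gjc3 and 8 that of Gjb1. Their averages, -0.18 ± 0.033 (adjusted p = 0.0132) and -0.20 ± 0.031 (adjusted p = 0.0038), kept their calls in each of those 20 fits. Without both vehicle arrays that stood apart, the average call of Gjc3 was lost (adjusted p = 0.0621). The mean level of these markers ran from 10.73 to 10.87 in vehicle arrays and 10.53 to 10.67 in celastrol arrays of 1 day, and from 10.81 to 10.87 and 10.52 to 10.75 at 4 days. None of the 13 was below the dim limit, and their part in the S100b values was not tested. Among 11 tested S100 genes and calcium-binding partners, 0 were called at each time. S100a16, which is also made in astrocytes, had a 1 day difference of -0.20 ± 0.067 (adjusted p = 0.348).

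Gfap encodes the glial fibrillary acidic protein, the intermediate filament used to mark reactive astrocytes. Vehicle arrays read 10.63, 10.65 and 10.77 at 6 h, 10.91, 10.48 and 10.76 at 1 day, and 10.54, 10.65 and 10.44 at 4 days. Celastrol arrays read 10.49, 10.73, 10.60 and 10.66 at 6 h, 10.60, 10.88, 10.71 and 10.73 at 1 day, and 10.79, 10.63 and 10.68 at 4 days. The groups overlapped at every time, and the vehicle arrays of 1 day alone spanned 10.48 to 10.91. The difference was -0.063 ± 0.086 at 6 h, 0.013 ± 0.086 at 1 day and 0.15 ± 0.092 at 4 days (limma, adjusted p = 0.844). The 4 day interval, from -2.60% to 27.1% without adjustment, was wide. Of 14 other intermediate filament genes tested, 0 were called at each time, with a median of 0.012 at 1 day.

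Among reactive astrocyte genes other than Gfap, 2 of 20 tested rose and 0 fell at 1 day, with a list median of 0.069. Of the 20, values were higher with celastrol for 9 at 6 h, 15 at 1 day, 13 at 4 days and 16 on average. The mean level of the list ran from 8.65 to 8.75 in vehicle arrays and from 8.82 to 9.01 in celastrol arrays of 1 day, and from 8.61 to 8.70 and 8.79 to 8.98 at 4 days, without overlap at either time; at 6 h it ran from 8.66 to 8.94 and 8.75 to 8.94, with overlap. Osmr, the oncostatin M receptor, rose by 1.19 ± 0.22 (adjusted p = 0.0168) and Serpina3n, a secreted protease inhibitor, by 0.32 ± 0.070 (adjusted p = 0.0456). Leaving out celastrol replicate 3 of 1 day, or each vehicle array of that time in turn, ended the Osmr call (adjusted p up to 0.0768), and 13 of the 20 fits with 1 array left out ended that for Serpina3n (up to 0.333). Averaged over the times, Osmr rose by 0.87 ± 0.13 (adjusted p = 0.00222), a call kept in each of those 20 fits, and Serpina3n by 0.20 ± 0.041 (adjusted p = 0.0317), a call kept in 11 of them. Lcn2, the secreted lipocalin-2, named here after its values were seen, had the largest 1 day value of the list without passing, 1.61 ± 0.56 (adjusted p = 0.379). Tm4sf1, a membrane protein also made in vessels, fell by 0.19 on average (adjusted p = 0.0470), a call kept in 4 of those 20 fits. The mean level of the list at 1 day holds the large values of Lcn2 and Osmr, both well above the list median of 0.069. It was not computed without them, so whether the separation of the list mean reflects the whole list was not tested.

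Other genes of astrocyte identity and surface moved little as a list: of 35 tested, 1 rose and 1 fell at 1 day, with a median of -0.0098, and 0 were called at 6 h and at 4 days. The gene that rose was F3, tissue factor, at 0.52 ± 0.079 (limma, adjusted p = 0.0042), kept in each fit without 1 array. The gene that fell was Sox9, the transcription factor of astrocyte nuclei, at -0.24 ± 0.052 (adjusted p = 0.0478), a call lost in 15 of those 20 fits (adjusted p up to 0.202). Grm3, an astrocyte glutamate receptor, had a value of -0.23 ± 0.050 (adjusted p = 0.0519), just short of the threshold, and passed with arrays centred (adjusted p = 0.0467) or quantile normalized again (0.0344). Radial glia genes (13 tested) had 2 lower and 0 higher at 1 day with a median of -0.098. These were Fabp7, a fatty acid binding protein that astrocytes also make, at -0.57 ± 0.067 (adjusted p = 0.000486), kept in each fit without 1 array, and Pax6, a transcription factor, at -0.39 ± 0.068 (adjusted p = 0.0121), lost without vehicle replicate 1 or 2 of 1 day (adjusted p up to 0.116). Pax6 was also called lower at 4 days, at -0.53 ± 0.073 (limma, adjusted p = 0.0095). Its average was -0.33 ± 0.040 (adjusted p = 0.00046), a call kept in each of the 20 fits without 1 array. Tanycyte and ependymal genes (14 tested) had 1 higher and 0 lower at 1 day with a median of 0.077. That gene was Dio2, the deiodinase that activates thyroid hormone, at 0.50 ± 0.11 (adjusted p = 0.0423), a call kept in 4 of the 20 fits without 1 array (adjusted p up to 0.185). Neuron markers (16 tested) had 0 called and a median of -0.034 at 1 day.

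**Figure D3:**
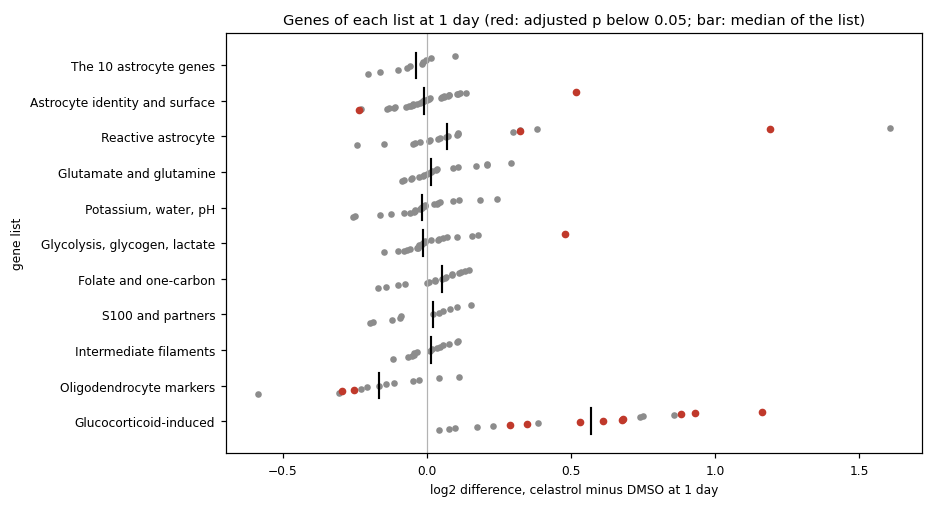
Difference between celastrol and vehicle arrays at 1 day for the genes of each list on the log2 scale; each point is a gene, red points passed the adjusted threshold in limma and the bar is the median of the list. The 10 astrocyte genes hold no red point and a median of -0.038, and the glucocorticoid-induced list holds 9 of 18 with a median of 0.57.

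Whether the celastrol difference itself changed between times was tested with limma's F test. It called 0 of the 10 genes, against 0.0142% of all tested genes, and 2 of the 10, Aqp4 and Aldh1l1 (adjusted p = 0.680 for both), had an unadjusted p below 0.05, as did 1028 of all genes. Vehicle arrays did not pass for any of the 10 genes between the times, against 0.0849% of all tested genes, with 0 of the 10 and 1688 of all genes at an unadjusted p below 0.05. Celastrol arrays passed for 0 of the 10 between the times, against 0.226% of all tested genes, with 1 of the 10, Aldh1l1, and 2994 of all genes at an unadjusted p below 0.05.

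The 10 genes differed in how tightly arrays of a group agreed. The within-group SD was 0.030 for Aldoc, 0.038 for the brighter probe set of Glul, whose identity is uncertain, and 0.043 for Slc1a2. These lay below 0.048 for Slc1a3, 0.053 for Slc4a4, 0.058 for Kcnj10 and 0.067 for Aqp4. It was 0.091 for Aldh1l1, 0.11 for S100b and 0.12 for Gfap, against a median of 0.080 over all tested genes. Aldoc stood at percentile 0.637 of tested genes in this SD and Gfap at percentile 84.3. Bright probe sets vary less on these arrays: the 602 tested genes with a mean log2 value of at least 12 had a median SD of 0.049, and Aldoc, Glul and Slc1a2 are among them.

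No pair of the 10 genes passed a test for varying together within groups. Deviations from the group mean over the 20 arrays gave 45 pairs, of which 25 correlated positively and 20 negatively, with a median r of 0.078. After Benjamini-Hochberg adjustment over the 45 pairs, 0 passed in a permutation test of 100000 resamples within groups, and 4 had an unadjusted p below 0.05 by Pearson's r. The closest pair was Gfap and Kcnj10 (r = 0.69, rho = 0.63, permutation p = 0.0047, adjusted p = 0.176), and r was 0.58 without the 2 arrays farthest from the median for Gfap and 0.71 without both vehicle arrays that stood apart (0.72 with the group means taken again over the arrays left). The pair farthest apart was Glul and Kcnj10 (r = -0.48), and the 2 glutamate transporters had an r of -0.38. Glul stands here for its brighter probe set, whose identity is uncertain, and pairs with its other probe set were not tested. These arrays share dissection, RNA quality and normalization, and the part of each was not tested.

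**Figure D4:**
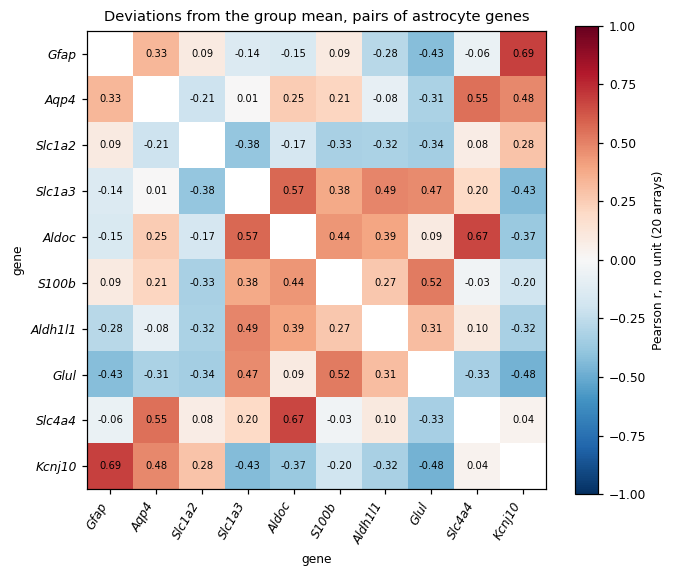
Pearson correlation, without unit, between each pair of the 10 genes over the 20 arrays after the group mean was taken from each value; red is positive and blue negative. Positive and negative pairs are mixed, with Gfap and Kcnj10 highest at 0.69 and Glul and Kcnj10 lowest at -0.48. Glul is shown by its brighter probe set, whose identity is uncertain.

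Among all tested genes, those that followed a member most closely over the 20 arrays, again as deviations from the group mean, were mostly outside the astrocyte lists. The nearest to Aqp4 was Mok (r = 0.90), to S100b Pitpnb (0.90), to Aldoc Mbtps1 (0.90), to Slc1a3 Mgst1 (0.87), to Aldh1l1 Tbc1d9b (0.87), to Glul Cd164 (0.85), to Slc4a4 Lat2 (0.85), to Gfap Thrsp (0.84), to Slc1a2 Casz1 (0.81) and to Kcnj10 Marchf11 (0.80). Slc6a11, the astrocyte GABA transporter, was among the 3 nearest to Aldoc (r = 0.82). For Glul the brighter probe set was used, whose identity is uncertain. Each of these is the highest of many values and are given as a description.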

How the data were processed

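The deposited table holds log2 intensities of 23492 probe sets on 20 arrays, which the authors made with RMA (background correction, quantile normalization and probe set summary) per the submitters' processing notes. Its version and the genome build were not given in the sources used here. Probe sets with 1 platform symbol (20228) were used, 1399 with several symbols and 1865 with none were not, and 20182 matched RefSeq by Entrez ID. For each of 18704 genes the brightest probe set stood, and those with a mean below the 25th percentile (7.04) were left out. Tests used limma 3.58.1 in R 4.3.3, two-sided, with 6 group means in 1 fit (14 residual and 4.92 prior degrees of freedom), and were tested on simulated data. The number of arrays limits the precision. No pair of arrays was identical.

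The members and gene lists were chosen with earlier results of these data known. From each list, up to 3 genes with the smallest p in the average and up to 4 past the threshold at 1 time could be named; those that the glial comparisons turn on are given, the others are counted only, and Lcn2 was added after its values were seen. Predicted genes were not named. The labels name no batch. Other scalings, filters, probe sets, weights and left-out arrays were tried as alternatives. Of 9 pairs of celastrol and vehicle arrays with the same replicate number and time, deviations correlated from -0.29 to 0.29, so the numbers were not taken as pairs.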

Additional observations from a re-analysis of the deposited data

Results flagged for a closer look

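For Fabp7 the celastrol difference changed between the times in limma's F test (adjusted p = 0.0060): it was 0.084 ± 0.067 at 6 h, -0.57 ± 0.067 at 1 day and 0.17 ± 0.072 at 4 days. None of the 10 astrocyte genes passed that test.

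Dio2 had 1 array far from the others among the 4 celastrol arrays of 1 day. Replicate 3 read 8.78 and the other 3 read 8.495 to 8.54, so that the gap to the nearest array was 0.84 of the group's range, past Dixon's limit for 4 values. Of 64 groups of 4 examined over 32 genes this was the only one past the limit, and chance passes about 1 in 20.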

How the results depend on the processing

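With each comparison of the 10 astrocyte genes with vehicle, limma called none of the 10 under any scaling, filter, probe set choice, weighting or replicate block; Aqp4 passed at 1 day and on average in the fit without celastrol replicate 1 of 4 days (members called 0 to 1 over the fits with 1 array left out). With array weights, 1 of the 10, Aldh1l1, passed between celastrol times. The labels do not say whether the replicate numbers pair the arrays, and they were not taken as pairs. With the replicate block the 1 day count over all genes was 70, and Aqp4 at 1 day was -0.21 (limma, adjusted p = 0.0789). Glul at 1 day was 0.0014 with that block. Genes called with it were 1 for the difference between times, 3 between vehicle times and 121 between celastrol times.

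Small differences turned sign. With arrays centred, S100b at 6 h was 0.00094, Gfap at 1 day -0.0080 and Slc1a2 at 4 days -0.0024. With arrays quantile normalized again, S100b at 6 h was 0.028, Slc1a3 at 1 day 0.012, Aldoc at 1 day 0.013 and Slc1a2 at 4 days -0.0045. Without both vehicle arrays that stood apart, S100b at 6 h was 0.088 and the Aldoc average 0.0036. For Glul at 1 day the mean of its probe sets gave 0.013, and its other probe set, an alternative chosen after seeing the data, gave -0.00041 at 6 h, 0.030 at 1 day and -0.0015 at 4 days. With 1 array left out, the 6 h difference ran from -0.054 to 0.0096 for Slc1a2, -0.021 to 0.029 for Glul, -0.069 to 0.0053 for Slc4a4 and -0.14 to 0.088 for S100b. The 1 day difference ran from -0.11 to 0.11 for Gfap, -0.024 to 0.025 for Glul and -0.040 to 0.0030 for Slc1a3. The 4 day difference ran from -0.016 to 0.029 for Slc1a2, -0.069 to 0.025 for Slc1a3 and -0.062 to 0.011 for Slc4a4. The average ran from -0.011 to 0.0046 for Aldoc, -0.016 to 0.033 for Aldh1l1 and -0.0050 to 0.067 for Gfap.

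The number of the 10 genes whose arrays did not overlap, recounted after seeing the data, was 2 at 1 day after quantile normalizing again (8.65% of all genes). With 1 array of that time left out it ran from 2 to 4 at 6 h (9.09% to 18.7% of all genes). At 1 day it ran from 5 to 6 (11.5% to 24.7%) and at 4 days from 1 to 5 (22.5% to 28.2%). Counts over all genes moved more. With array weights 196 passed at 1 day, 20 at 4 days, 45 between vehicle times and 435 between celastrol times. Without the dim filter 2 passed at 4 days, 60 between celastrol times and 1 in the difference between times; quantile normalizing again gave 5, 29 between vehicle times and 1 in the difference between times, and centring gave 1 in the latter. Without both arrays that stood apart 39 passed on average, 1 in the difference between times, 1 between vehicle times and 309 between celastrol times, and with only the arrays of 4 days in the fit 2 passed. With 1 array left out the counts ran from 0 to 6 at 6 h, 18 to 85 at 1 day, 0 to 20 at 4 days, 39 to 156 on average, 1 to 3 for the difference between times, 1 to 25 between vehicle times and 2 to 62 between celastrol times. The cause of these shifts was not tested. Among the 3 times, scaling moved the median over all genes most at 1 day, from 0.0063 to -0.015 with arrays centred. With arrays quantile normalized again that median was -0.0030.

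Among other genes named, without both arrays that stood apart the 1 day calls in limma of Osmr (adjusted p = 0.0686), Slc2a1 (0.0702), Serpina3n (0.0642), Sox9 (0.118), Dio2 (0.0953) and Gjc3 (0.0739) were lost, and F3 kept its call under every alternative. Centring lost those of Serpina3n (0.0555) and Dio2 (0.0525). Without the dim filter Sox9 (0.0784), Serpina3n (0.0680), Dio2 (0.0614) and Gjb1 (0.0614) lost theirs, and the replicate block lost that of Sox9 (0.0586). Array weights added 1 day calls of Grm3 (0.0137), Gpt2 (0.0406) and Kcnj2 (0.0355), and the replicate block added Gpt2 (0.0439). With 3 or 4 arrays per group, differences of the size seen here lie within or near the spread between arrays, and a p that misses the threshold does not show that a gene did not differ.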
